A study of Mus musculus with 12 samples.

Results

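The comparison is that of dead cells against no treatment in wild-type (WT) CD8α+-like dendritic cells, which in culture stand for the conventional dendritic cell of type 1 (cDC1). Its arrays were chosen by their labels, 3 with dead cells and 3 untreated, which is 6 of the 12 arrays of the series. On these arrays 23238 rows were read, and rows with a single gene symbol covered 14807 genes. Flt3 ligand, at 100 ng/ml over 10 days, turned bone marrow of C57BL/6 mice into these cells. The treated cells were kept for 5 h with dead cells that had been treated with a UVC dose of 240 mJ/cm2 and cultured for another 24 h. After that, CD24-high, CD11b-low and B220-negative cells were sorted, and their RNA was hybridised. The untreated cells are labelled 0 h, so the effect of the dead cells and that of 5 h more in culture cannot be told apart. The labels do not name the cell from which the dead cells were made. Nothing says either that the 3 replicates were separate cultures or animals, so each p-value measures the spread among these arrays alone, and that spread may be technical. The other 6 arrays hold cells homozygous for a gfp allele of Clec9a (Clec9a gfp/gfp) under the same treatments, and they entered the fit for the estimate of the spread.

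Type 1 dendritic cells take up dying cells and present their antigens to CD8 T cells. An activated dendritic cell is known to change its transcription factors, to exchange receptors for uptake and sensing against molecules that act on lymphocytes, and to secrete cytokines. Activation is also known to raise glycolysis and lower mitochondrial respiration in dendritic cells. The families below are those outside the interferon, maturation and cell cycle genes, ordered as transcription factors, receptors, secreted factors, metabolic genes and signalling genes.

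The measurements are linear intensities, and each intensity was taken as log2(value + 16) and fitted with limma. Each log2 change below is dead cells minus untreated on this scale, which understates the change of dim genes, and is printed with its standard error (SE). A Benjamini-Hochberg adjusted p under 0.05 made a call. Of the 23238 rows 3368 were higher with dead cells (14.5%) and 7213 lower (31.0%). The same fit called 2425 of the 14807 genes higher (16.4%) and 5798 lower (39.2%). The arrays with dead cells had a lower upper quartile, 240.1 to 258 against 396 to 419 untreated, at a like lower quartile of 30.4 to 35.9. After quantile normalization, which gives every array one distribution, the calls were 4571 genes higher (30.9%) and 4542 lower (30.7%). The split between higher and lower calls thus depended on the scale, and 117 rows called lower on the deposited scale were called higher on the quantile scale. A stricter count was therefore used for the families. A gene counts as at least 2-fold changed where it was called on both scales, with a log2 change of at least 1 in size and the same direction on both. This count held 921 rows higher (3.96%) and 2941 lower (12.7%), or 670 genes higher (4.52%) and 2445 lower (16.5%). A fixed rule chose 133 rises and 157 falls, not all of which are named below. The largest adjusted p among them is 0.00331, that of S100a8, and the groups overlap in none of them. Except for genes taken as markers, the rule itself required groups that do not overlap. The shares of 4.52% and 16.5% are the background for each family below. They cover all genes, dim ones included, while the lists were chosen with earlier results of these data known. A share above the background thus describes a list and tests nothing. The median log2 change over all genes was -0.09 on the deposited and 0.10 on the quantile scale. In Clec9a gfp/gfp cells the same comparison called 2989 genes higher (20.2%) and 5935 lower (40.1%).

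**Figure D1:**
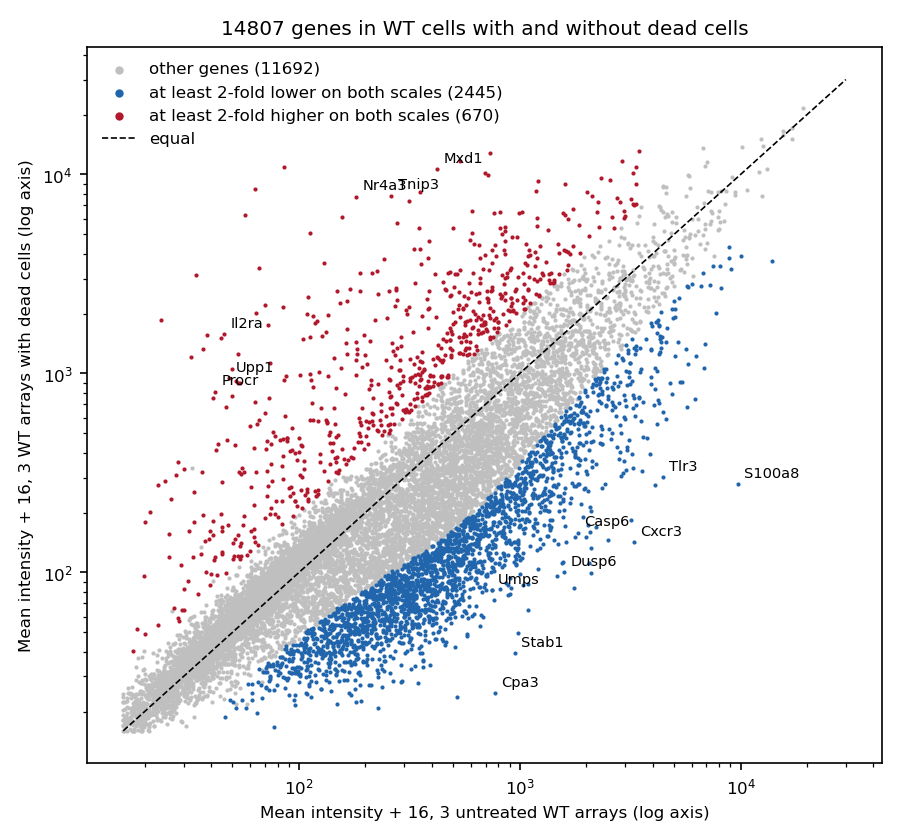
Mean intensity plus 16 of 14807 genes, untreated on the horizontal and with dead cells on the vertical log axis, 3 WT arrays per group. The 670 genes at least 2-fold higher on both scales are red and the 2445 lower ones blue. Labelled genes include Il2ra and Nr4a3 above the line of equality and Cpa3 and Stab1 below it.

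The sorted cells carried the markers of their label before treatment, and several were lower afterwards. Clec9a, which encodes the dead cell receptor DNGR-1, read 2646, 2648 and 2581 untreated and 1496, 1372 and 1471 with dead cells, a log2 change of -0.85 ± 0.11 (adjusted p = 5.05e-05). This call was lost with a pseudocount of 1 or with none. The fit pooled the spread with the Clec9a gfp/gfp arrays, where Clec9a read 2.68 ± 2.32 untreated and 1.99 ± 1.78 with dead cells (SD). At a small pseudocount, readings this low vary widely on the log2 scale. Their part in the lost call was not tested. Of 17 measured cDC1 markers 12 fell and 2 rose. The marker counts in this paragraph are calls at any size on the deposited scale. Their background is the share over all 14807 genes, 16.4% higher and 39.2% lower. Tlr3, the endosomal receptor for double-stranded RNA, fell from 4427 to 285 in mean intensity, while Cadm1, an adhesion molecule, had means of 1568 and 1758 and was not called on the deposited scale (adjusted p = 0.202), though it was on the quantile scale (log2 change 0.33). Markers of other cells moved with treatment too. Summed over 17 macrophage markers, intensity was 24527 to 33436 untreated and 4715 to 5527 with dead cells, and 16 of the 17 fell. Summed over 17 stromal markers it was 15395 to 19502 against 2447 to 4269, and 14 fell. Over 14 neutrophil markers it was 8426 to 14383 against 819.6 to 1065, and 7 fell. Over 15 mast and erythroid markers it was 2172 to 3311 against 719 to 844, and 7 fell. Over the 11 cDC2 markers it was 5617 to 7466 against 1495 to 1649, with 7 lower and 3 higher. The 11 plasmacytoid dendritic cell (pDC) markers had 3 higher and 3 lower, the 11 lymphocyte markers 2 and 2, and the 12 epithelial and melanocyte markers 3 and 0. Their sums were 3552 to 4288, 704 to 1412 and 941 to 1258 untreated, and 4674 to 4826, 564 to 724 and 1113 to 1181 with dead cells, in the same order. No macrophage, neutrophil or stromal marker had a mean below 16 untreated. The families' falls of at least 2-fold that are on these lists are Ccr2, Ccr9, Cx3cr1, Adgre1, Csf1r, Csf3r, Cd209a, Mrc1, Mgl2, Stab1, Mertk, Sirpa, Itgam, Pdgfrb, Cd14, Cxcl12, Pf4, Fstl1, Mmp8, Prss34 and 13 genes of the complement, coagulation and carrier list. The part of such cells in any result, for genes on these lists or off them, was not tested. In sorted bulk RNA, fewer cells of a type and less RNA per cell cannot be told apart.

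Several of the largest rises outside the interferon, maturation and cell cycle lists came from genes that were dim in untreated cells. Nr4a3, an orphan nuclear receptor of the immediate early kind, read 151, 227 and 119.7 untreated and 7338, 7653 and 8179 with dead cells. Mab21l3 went from 33.8, 21.3 and 12.3 to 1984, 1305 and 1339. Il2ra, the alpha chain of the interleukin-2 receptor (CD25), read 32.7, 35.5 and 21.6 and then 1827, 1568 and 1299. As the rule that chose them required, every treated array was above every untreated one in each of these genes. The log2 changes were 5.45 ± 0.17, 5.35 ± 0.23 and 5.10 ± 0.15 (adjusted p at most 1.60e-08). The next in size were Abtb2 at 5.08 ± 0.11, Hspa1a at 4.99 ± 0.14 and Tnip3 at 4.90 ± 0.089. Hspa1a encodes an inducible heat shock protein 70 and has a near-identical neighbour, Hspa1b, so its reading may hold both. Gca, which encodes the calcium-binding protein grancalcin, rose from 68.6 to 2146 (4.67 ± 0.10). Pdzk1ip1 rose from 37.2 to 1232 (4.56 ± 0.31) and Ildr1 from 99.9 to 1938 (4.08 ± 0.15).

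The largest falls included genes that mark other cells. S100a8, abundant in neutrophils and monocytes, read 12552, 9329.9 and 7174 untreated and 234, 287 and 268 with dead cells, with a wide error (log2 change -5.09 ± 1.14, adjusted p = 0.00331). That error is pooled over all 12 arrays, Clec9a gfp/gfp cells included, and is not the spread of these readings alone. Cpa3, a mast cell protease, went from 1042, 945 and 289 to 12.3, 8.63 and 5.03. Cxcr3, the receptor for the interferon-induced chemokines Cxcl9, Cxcl10 and Cxcl11, is on none of those marker lists. It read 3540.1, 3272 and 3001 untreated and 169.8, 131 and 78.7 with dead cells (-4.58 ± 0.20, adjusted p = 1.90e-08). Dusp6, the phosphatase that switches ERK off, fell from 1883, 1587 and 1261 to 83.9, 94 and 74.8. Dab2, an endocytic adaptor, fell from 4083 to 259.6 (-3.92 ± 0.19), and Mlec, a lectin of the endoplasmic reticulum, from 3184 to 168 (-4.15 ± 0.16). A further count, outside the interferon, maturation and cell cycle lists, took genes below 32 on all 3 arrays of a group and above 8 times that on all 3 of the other. It held 3 genes that rose past both bounds, Abtb2, AA467197 and Fas, and 12 that fell past both. Among the latter were Gpd1l, at 265, 284 and 271 untreated and 19.1, 2.89 and 14.5 with dead cells, and the checkpoint kinase gene Chek2, at 361, 397 and 290.4 and 26.6, 15.3 and 18.6.

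The promoters of 3 strong rises are printed to show where the letters of known response elements stand in genes that rose. Only windows that held a match were printed, so they do not show how common a match is. Ccl22, Tnfsf15 and Il12b, also strong rises, had no match. Each is the 250 bases before the transcription start in the RefSeq annotation of GRCm38.p6, 5′ to 3′ on the gene's strand. Capitals mark matches to the NF-kB letters GGGANTTTC, the AP-1 letters TGANTCA or the antioxidant element letters TGACNNNGC, on either strand. The windows lie at chr4:48045055-48045304, chr5:30012864-30013113 and chr2:155750967-155751216, each on the plus strand.
Nr4a3: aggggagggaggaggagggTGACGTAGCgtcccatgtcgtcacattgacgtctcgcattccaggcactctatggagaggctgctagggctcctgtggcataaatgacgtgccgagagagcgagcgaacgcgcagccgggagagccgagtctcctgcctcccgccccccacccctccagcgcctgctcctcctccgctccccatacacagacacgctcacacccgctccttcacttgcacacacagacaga
Il6: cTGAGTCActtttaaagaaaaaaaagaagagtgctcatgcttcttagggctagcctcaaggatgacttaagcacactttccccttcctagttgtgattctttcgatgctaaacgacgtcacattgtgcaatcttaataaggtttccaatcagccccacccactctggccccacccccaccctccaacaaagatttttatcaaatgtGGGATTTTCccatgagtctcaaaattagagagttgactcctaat
Procr: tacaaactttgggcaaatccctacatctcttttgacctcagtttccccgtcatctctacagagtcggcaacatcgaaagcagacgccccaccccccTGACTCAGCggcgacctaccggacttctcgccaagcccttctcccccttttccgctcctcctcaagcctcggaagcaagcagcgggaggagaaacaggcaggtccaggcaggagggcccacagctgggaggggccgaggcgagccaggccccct
The Il6 window holds an AP-1 match at base 2 and an NF-kB match at base 207. In Procr the AP-1 and antioxidant matches overlap at base 97, since both sets of letters begin TGA. Bases are counted from the 5′ end of each window. Il6 encodes the inflammatory cytokine interleukin 6, and its intensity went from 12, 18.1 and 18.7 to 1039.7, 1231 and 1305 (5.23 ± 0.20). Procr encodes the endothelial protein C receptor, and its intensity went from 19.2, 25.3 and 32.8 to 856, 797 and 729 (4.29 ± 0.13). Letters of 6 kinds were searched in windows of 300 bases, 50 of them after the start, and 11855 measured genes had a window. AP-1 letters stood in the windows of 23 of 110 rises chosen by the rule (20.9%), of 11 of 133 such falls (8.27%) and of 8.07% of all 11855 genes. Antioxidant letters stood in 24.5%, 18% and 15.7%, and NF-kB letters in 3.64%, 3.01% and 1.29%. Interferon response letters (GAAANNGAA) stood in 12.7%, 8.27% and 8.99%, and the E-box CACGTG in 10.9%, 9.77% and 10.2%. Cyclic AMP letters (TGACGTCA) stood in 0.909%, 0.752% and 2.73%. These shares are descriptions without a test, and a match is not a site.

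**Figure D2:**
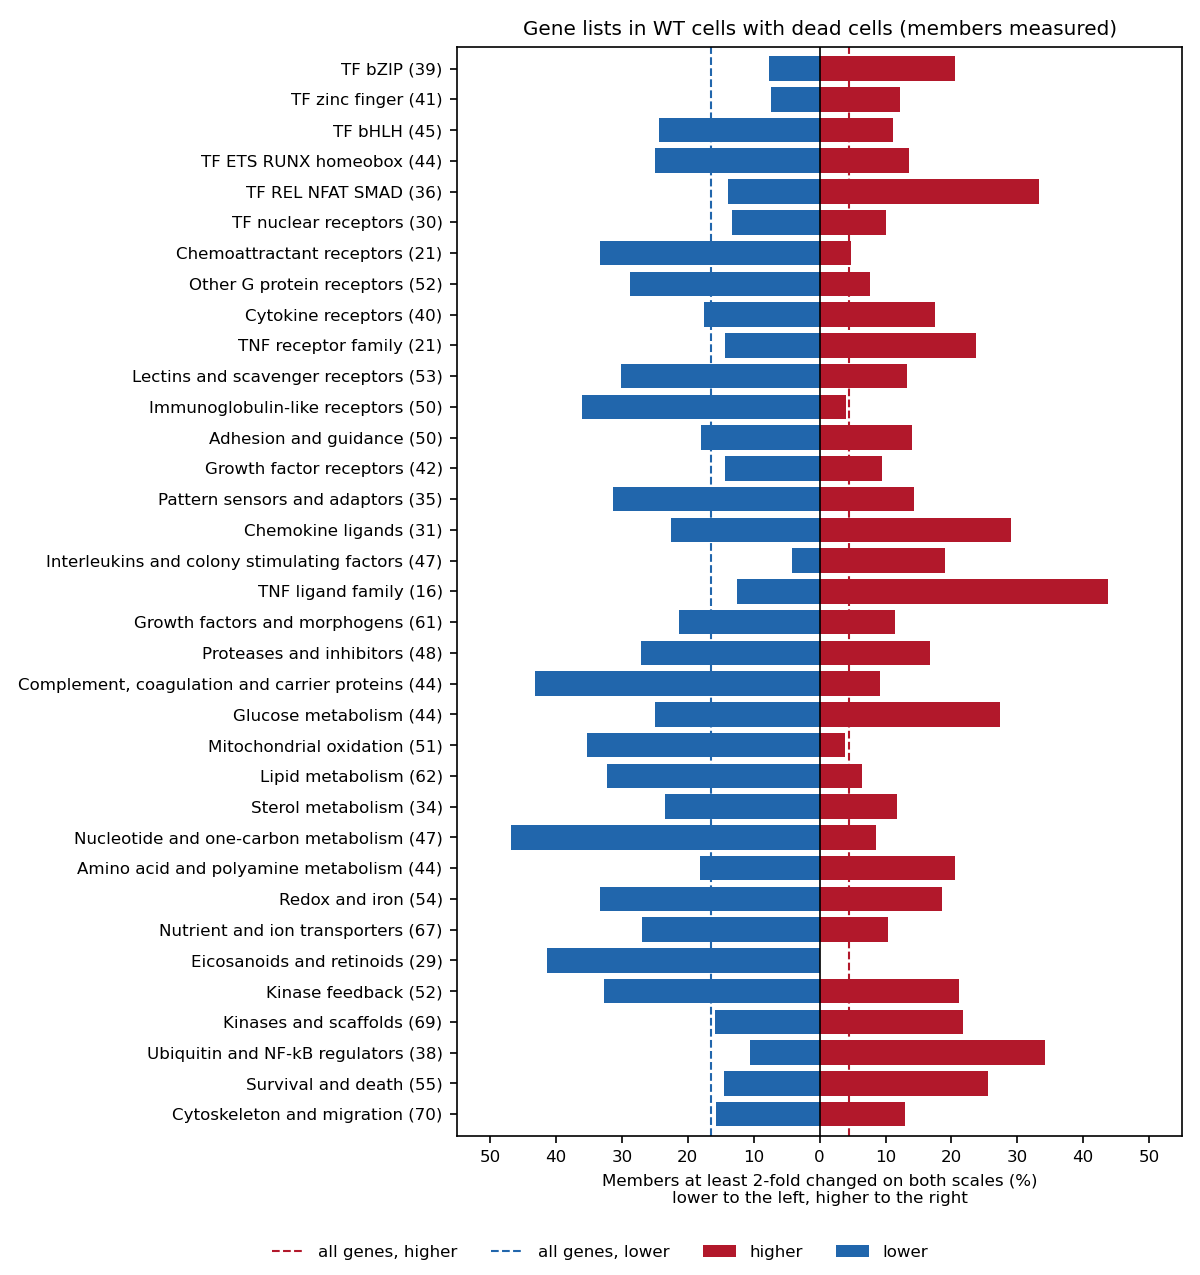
Share of the measured members of each gene list at least 2-fold changed on both scales, higher to the right and lower to the left, with the number measured in brackets. Dashed lines mark 4.52% and 16.5%, the shares over all 14807 genes. The TNF ligand bar reaches 43.8% higher and the nucleotide and one-carbon bar 46.8% lower.

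A family keeps members that also stand on the maturation or interferon lists. Among the named rises these are Rel, Nfkb2, Il15ra, Ebi3, Tnfrsf9, Tnfsf9, Cd70, Ccl22, Cxcl9, Cxcl10, Cxcl11, Il6, Il12b, Il15, Cd200, Serpinb9, Il4i1, Socs2, Traf1, Birc3, Map3k14 and Stat5a. Where every call was counted, at any size, the bHLH, ETS and homeobox, adhesion, growth factor receptor, glucose, sterol, amino acid, kinase and cytoskeleton lists had more members lower on the deposited scale and more higher on the quantile scale. The 2-fold counts below hold on both scales by construction.

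Transcription factors changed in both directions, with calls of 75 higher and 92 lower on the deposited and 117 higher and 64 lower on the quantile scale, so that the balance of calls depended on the scale. Of 235 measured genes in 6 families, 39 were at least 2-fold higher (16.6%, against 4.52% of all genes) and 37 lower (15.7%, against 16.5%). The bZIP list, which holds AP-1, ATF, CREB and MAF proteins that bind DNA as dimers, had 39 measured members, of which 8 were at least 2-fold higher (20.5%) and 3 at least 2-fold lower (7.69%). Jdp2, a repressor that pairs with JUN proteins, read 359, 313 and 343 untreated and 4693, 4037 and 3961 with dead cells (3.58 ± 0.13, adjusted p = 7.84e-09). Batf, an AP-1 partner of IRF4 and IRF8, went from 214, 216 and 186 to 2053, 1658 and 1828 (3.07 ± 0.13). Nfe2l2, which encodes the antioxidant regulator NRF2, rose from 1183 to 6027 (2.35 ± 0.16), and Nfil3, a factor needed for cDC1 development, from 523 to 1906 (1.84 ± 0.17). As the rule that chose these genes required, all 3 arrays with dead cells lay above all 3 untreated ones in each of the 4. Fos, an immediate early AP-1 subunit, moved the other way, from 4415, 4289 and 3762 to 974, 1102 and 977 (-2.01 ± 0.10). Tef, of the circadian PAR group, fell from 304 to 92.1 (-1.60 ± 0.24), while Atf4, the factor of the integrated stress response, had means of 1886 and 1909.7 (adjusted p = 0.919). The list's median log2 change was 0.28 on the deposited and 0.68 on the quantile scale.

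Basic helix-loop-helix factors held large changes in both directions. Of 45 measured, 5 were at least 2-fold higher (11.1%) and 11 at least 2-fold lower (24.4%), with a median log2 change of -0.28 on the deposited and 0.13 on the quantile scale, so that the sign of the median depended on the scale. Mxd1, which competes with MYC for its partner MAX, read 429, 383 and 411 untreated and 10373, 11117 and 10525 with dead cells (4.66 ± 0.14, adjusted p = 3.88e-09). Bhlhe40, a repressor linked to cytokine output in lymphoid and myeloid cells, went from 250.3, 232 and 202 to 3914, 3467 and 3790.3 (3.94 ± 0.11). Tcf4, which encodes E2-2, the lineage factor of plasmacytoid dendritic cells, rose from 517 to 1517 (1.53 ± 0.098), and Id1, an inhibitor of E proteins, from 67.8 to 212 (1.44 ± 0.11). Mxd4, another MAX partner that opposes MYC, fell from 1675 to 208 (-2.93 ± 0.16). Mycl, the MYC family member expressed in dendritic cells, read 1541, 1466 and 1743 untreated and 276, 246 and 231 with dead cells (-2.58 ± 0.13). Lyl1, a haematopoietic progenitor factor, fell from 623 to 72.4 (-2.86 ± 0.16), and Tcf3, which encodes the E protein E2A, from 470.1 to 104 (-2.04 ± 0.15). Thus Mxd1 and Mxd4, 2 genes of one repressor family, moved in opposite directions.

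The REL, NFAT and SMAD list had the highest share of rises among the transcription factor lists. Of 36 measured, 12 were at least 2-fold higher (33.3%) and 5 at least 2-fold lower (13.9%), and 2 of the 12 rises also stand on the maturation list. Bcl3, a nuclear partner of NF-kB p50 and p52, read 358, 297 and 239 untreated and 2066, 2044 and 2321 with dead cells (2.80 ± 0.13). Nfkb2, the p100 precursor of the alternative NF-kB pathway, rose from 732 to 3563 (2.26 ± 0.085). The NF-kB subunit gene Rel rose from 1647 to 5972 (1.85 ± 0.091), and the inhibitor Nfkbie from 667 to 3337 (2.30 ± 0.086). Other members of the list fell. Nfatc2, which calcineurin activates, went from 1019, 1034 and 958 to 237, 201 and 174 (-2.22 ± 0.12). Mef2c, a MADS box factor, fell from 1037 to 259.9 (-1.93 ± 0.14), Srf, the serum response factor, from 477 to 136 (-1.71 ± 0.20), and Notch2, the receptor whose cleaved form acts with RBPJ, from 3900.2 to 1295 (-1.58 ± 0.10). The largest adjusted p among these 8 genes was 2.78e-05. The list's median was 0.44 on the deposited and 0.78 on the quantile scale.

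**Figure D3:**
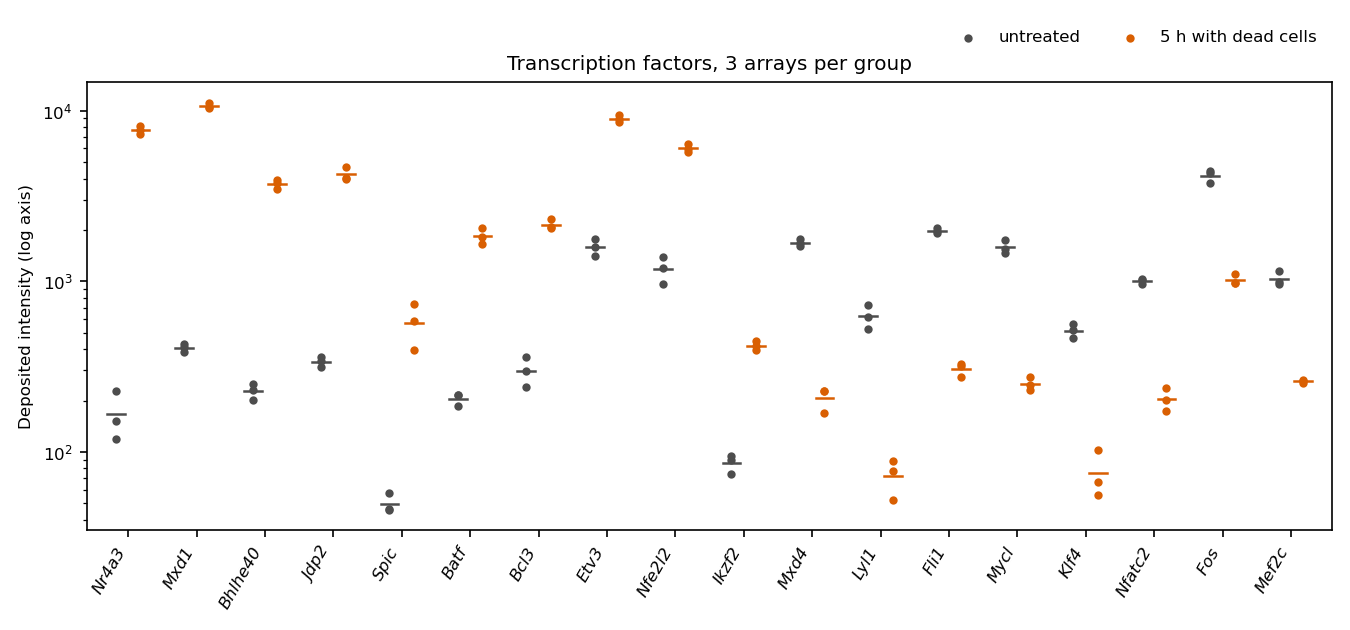
Intensity on a log axis of 18 transcription factor genes, 1 point per array with 3 untreated and 3 treated WT arrays, and a bar at each mean. The 10 genes on the left, from Nr4a3 to Ikzf2, were higher with dead cells and the 8 on the right, from Mxd4 to Mef2c, lower. The groups overlap in none of the 18, as the rule that chose them required.

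Of 44 measured ETS, RUNX, forkhead and homeobox factors, 6 were at least 2-fold higher (13.6%) and 11 at least 2-fold lower (25%), against 4.52% and 16.5% of all genes. The calls at any size were 13 higher and 23 lower on the deposited scale, and the calls on the quantile scale were 20 higher and 17 lower. Spic, an ETS factor known from red pulp macrophages, read 45.7, 57.3 and 46.2 untreated and 733, 398 and 583 with dead cells (3.12 ± 0.21). Etv3, an ETS repressor, rose from an already bright 1591 ± 182 to 8981 ± 393 (SD, n = 3 each, 2.49 ± 0.092). Foxp4 rose from 177 to 1064 (2.49 ± 0.12) and Tcf7l2, a nuclear effector of Wnt signals, from 196 to 855 (2.03 ± 0.14). Fli1, an ETS factor of haematopoietic cells, fell from 2045, 1968 and 1911 to 325, 275 and 319 (-2.63 ± 0.10). Etv5 fell from 231 to 29.3 (-2.45 ± 0.14), the homeobox gene Hoxa7 from 557 to 102 (-2.39 ± 0.28) and Elk3, a partner of Srf, from 324 to 51.7 (-2.33 ± 0.12). Zinc finger factors of the Krüppel, Ikaros, EGR and ZBTB groups had 41 measured members, of which 5 were at least 2-fold higher (12.2%) and 3 at least 2-fold lower (7.32%). Ikzf2, which encodes Helios, rose from 85.9 to 419 (2.10 ± 0.11). Plagl2, Zbtb18 and Zbtb7b rose by smaller amounts, with log2 changes of 1.26 ± 0.087, 1.25 ± 0.12 and 1.06 ± 0.098. Klf4, a factor of monocytes and cDC2, fell from 513 to 75.1 (-2.57 ± 0.17), and Klf2, a quiescence factor, from 1339 to 411 (-1.67 ± 0.16). Egr2 fell from 818 to 217 (-1.82 ± 0.31), with a larger error than the others. Of 30 nuclear receptors and their cofactors, 3 were at least 2-fold higher (10%) and 4 at least 2-fold lower (13.3%). Beside Nr4a3 the rises were Ppard, a fatty acid sensor, from 171 to 484 (1.42 ± 0.084), and the coactivator Ncoa5, from 603 to 1239 (1.01 ± 0.11). Rxra, the common partner of lipid-sensing receptors, fell from 339, 346 and 274 to 85.9, 73.2 and 46 (-2.01 ± 0.18). Pparg, the receptor that drives lipid storage, fell from 140.0 to 45.7 (-1.35 ± 0.16), and the orphan receptors Nr2f6 and Nr2c1 changed by -1.85 ± 0.20 and -1.33 ± 0.13.

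Receptors changed in both directions. Of 364 measured genes in 9 lists, 42 were at least 2-fold higher (11.5%, against 4.52% of all genes) and 92 lower (25.3%, against 16.5%). The quantile calls were 114 higher and 140 lower. List medians ran from -0.85 (immunoglobulin-like receptors) to 0.14 (TNF receptor family) on the deposited scale, and from -0.64 to 0.45 for the same lists on the quantile scale. Chemoattractant receptors guide cells along gradients. Of 21 measured, 1 was at least 2-fold higher and 7 lower. The falls included C3ar1, the receptor for complement C3a, from 1550.0 to 96.3 (-3.79 ± 0.17), Cx3cr1, the fractalkine receptor, from 356 to 30 (-3.01 ± 0.22), and Ccr2, the monocyte chemokine receptor, from 1572 to 191 (-2.90 ± 0.18). Of the 7 falls 3 are on the lists of other cells. Among 52 other G protein-coupled receptors, 4 were at least 2-fold higher (7.69%) and 15 at least 2-fold lower (28.8%). Adora3, an adenosine receptor, read 2721, 2377 and 2421 untreated and 143, 118 and 130.3 with dead cells (-4.11 ± 0.16). Cysltr1, which binds cysteinyl leukotrienes, fell from 2094 to 188 (-3.37 ± 0.14), and F2rl2, a protease-activated receptor, from 897 to 67.5 (-3.46 ± 0.24). Adgre1, which encodes the macrophage antigen F4/80, fell from 1327 to 136 (-3.11 ± 0.18). The 4 rises were of receptors for lipids, lactate and nucleotides. Ptger4, a prostaglandin E2 receptor, read 1202, 1208 and 1133 and then 3994, 3572 and 3746 (1.66 ± 0.092). S1pr3, a sphingosine 1-phosphate receptor, rose from 109 to 379 (1.69 ± 0.25), Gpr132, a receptor that responds to lactate, from 1158 to 3436 (1.56 ± 0.094), and P2ry2, a receptor for ATP and UTP, from 131 to 304 (1.13 ± 0.15). P2ry10, bright in both groups, had means of 4204 and 4406 and was not called (adjusted p = 0.591).

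Of 40 cytokine receptors, 7 were at least 2-fold higher (17.5%, against 4.52% of all genes). Another 7 were at least 2-fold lower (17.5%), near the 16.5% of all genes. The rises were led by chains for cytokines of the interleukin-2 family. After Il2ra came Il21r, the interleukin-21 receptor, which read 294, 354 and 314 untreated and 2745, 2734 and 3021 with dead cells (3.08 ± 0.13). Il15ra, which carries interleukin-15 to neighbouring cells, went from 106, 96 and 90.1 to 987, 786 and 953 (3.02 ± 0.11). Csf2rb, the shared chain of the receptors for GM-CSF, interleukin 3 and interleukin 5, was bright before treatment and rose from 2312 to 9570.1 (2.04 ± 0.074). The falls included growth and cytokine receptors of myeloid cells. Flt3, the receptor for the Flt3 ligand in which these cells were grown, read 5330.4, 5210.4 and 4598 untreated and 1259, 1195 and 1163 with dead cells (-2.05 ± 0.10, adjusted p = 3.56e-08). Ifngr1, the ligand-binding chain of the interferon gamma receptor, fell from 6590.3, 7153 and 6679 to 1101, 1075 and 981 (-2.68 ± 0.11). Csf1r, the receptor of macrophage growth factor and a macrophage marker, fell from 1457 to 79.8 (-3.91 ± 0.18), and Lifr from 285 to 35.6 (-2.54 ± 0.14). Il10rb, a shared chain of the interleukin-10 receptor family, had means of 2020.4 and 1899 (adjusted p = 0.444). In the TNF receptor family 5 of 21 were at least 2-fold higher (23.8%) and 3 lower (14.3%, below the 16.5% of all genes). Fas, the death receptor, read 8.02, 15.4 and 18.7 untreated and 338, 322 and 287 with dead cells (3.48 ± 0.19). Tnfrsf9, which encodes 4-1BB, rose from 35.8 to 904 (4.14 ± 0.15), Tnfrsf1b, which encodes TNF receptor 2, from 957 to 4860.2 (2.33 ± 0.11), and Tnfrsf8, which encodes CD30, from 200.3 to 533 (1.31 ± 0.15). Tnfrsf21, the death receptor DR6, fell from 887 to 125 (-2.64 ± 0.20), Tnfrsf13b, which encodes TACI, from 184 to 50.1 (-1.62 ± 0.18), and the decoy receptor Tnfrsf11b, osteoprotegerin, from 144 to 40.3 (-1.49 ± 0.18).

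Receptors for uptake changed in both directions. Of 53 lectins and scavenger receptors, 7 were at least 2-fold higher (13.2%) and 16 at least 2-fold lower (30.2%), and 5 of the 16 falls are on lists of other cells. Havcr1, which encodes the phosphatidylserine receptor TIM-1, read 80.3, 76.7 and 57.2 untreated and 1069.8, 923 and 881 with dead cells (3.48 ± 0.16). Timd4, which encodes TIM-4, another receptor for this lipid on dying cells, went from 161, 145 and 136 to 1313, 1418 and 1498 (3.13 ± 0.13). Axl, a kinase that binds the same lipid through the bridging protein Gas6, rose from 455 to 3175 (2.77 ± 0.10), while Gas6 itself fell from 1021 to 70.1 (-3.58 ± 0.21). Mertk, a relative of Axl that also binds Gas6 and was singled out after its values were seen, fell from 138, 214 and 163 to 18.2, 13.5 and 15.7 (-2.54 ± 0.13). Havcr1, Timd4 and Axl thus rose while Mertk and Gas6 fell. Gas6 is on none of the lists of other cells. Untreated it read 885, 1334 and 844, and the macrophage marker C1qb 3279, 4723 and 3619, both highest in replicate 2. A part of macrophages in the fall of Gas6 was not tested. Stab1, a scavenger receptor of macrophages and endothelium, fell from 778, 1262 and 758 to 23.6, 22.1 and 24.3 (-4.55 ± 0.18), and Mrc1, the mannose receptor, from 1744 to 67.2 (-4.35 ± 0.24). Clec4n, which encodes dectin-2, fell from 564 to 42.9 (-3.29 ± 0.17), and Cd5l, a macrophage protein, from 304 to 16.7 (-3.33 ± 0.30). Among 50 immunoglobulin-like receptors 18 were at least 2-fold lower (36.0%) and 2 higher (4%), with a median of -0.85 on the deposited and -0.64 on the quantile scale. Cd200, a ligand that restrains myeloid cells, rose from 254, 249.8 and 281 to 2464, 2179 and 2310.4 (3.07 ± 0.13), and Slamf7 rose from 2645 to 5393 (1.02 ± 0.084). The falls were led by Fcrla, from 277 to 12.5 (-3.40 ± 0.25), the IgG receptor Fcgr3, from 749.9 to 56.5 (-3.40 ± 0.20), and the inhibitory receptors Pilra, from 252 to 12.5 (-3.26 ± 0.23), and Sirpa, from 2346 to 249 (-3.16 ± 0.17). Sirpa is a cDC2 marker as well. Cd47, the ligand of SIRPα, had means of 2742 and 2734 and was not called (adjusted p = 0.969).

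Adhesion and guidance molecules fell in about the share of all genes. Of 50 measured, 7 were at least 2-fold higher (14%) and 9 at least 2-fold lower (18%). Sema7a, a membrane semaphorin that binds integrins, read 277, 301 and 200.3 untreated and 3012, 2544 and 2494 with dead cells (3.31 ± 0.14). F11r, which encodes the junction molecule JAM-A, rose from 82.1 to 353 (1.91 ± 0.13), and Itga5, the alpha chain of the fibronectin receptor, from 302 to 1170.1 (1.90 ± 0.097). Cd93 fell from 821, 1425 and 992 to 21.6, 61.1 and 63.2 (-4.12 ± 0.28), Itga6, the alpha chain of laminin receptors, from 647 to 37.7 (-3.60 ± 0.22), and Nrp1, a receptor for semaphorins and VEGF, from 1189 to 88.1 (-3.53 ± 0.13). Itgam, which encodes CD11b, against which the cells were sorted, and which is on the macrophage and cDC2 lists, fell from 1161 to 162 (-2.70 ± 0.18). Selplg, the selectin ligand, had means of 4657 and 4662, and Cd81, a tetraspanin, 3290.0 and 3092, and neither was called. In the growth factor receptor list 4 of 42 were at least 2-fold higher and 6 lower, of which Pdgfrb is on the stromal list. Lrp8, a receptor of reelin and apolipoprotein E, read 128, 120.4 and 108 untreated and 1745, 1850.4 and 2256 with dead cells (3.86 ± 0.15). Kdr, which encodes VEGF receptor 2, went from 27.9, 32.4 and 32.8 to 451, 360.2 and 532 (3.29 ± 0.18). The Wnt receptors Fzd5 and Fzd7 rose by 1.07 ± 0.18 and 1.01 ± 0.079, and Fzd1 fell from 537 to 57.1 (-2.96 ± 0.23). Lrp5, a Wnt co-receptor, fell from 438 to 98.5 (-1.99 ± 0.12), Fgfr1 from 633 to 124 (-2.22 ± 0.15) and Insr, the insulin receptor, from 305 to 69.6 (-1.91 ± 0.14).

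Sensors of microbial and dead cell material changed in both directions. Of 35 pattern sensors and adaptors, 5 were at least 2-fold higher (14.3%) and 11 at least 2-fold lower (31.4%), against 4.52% and 16.5% of all genes, and 1 of the falls, Cd14, is on the macrophage list. The profilin receptors Tlr11 and Tlr12 both fell, Tlr11 from 3011, 2756 and 2844 to 326, 311 and 232 (-3.25 ± 0.15) and Tlr12 from 535, 504 and 642 to 37.9, 37.1 and 24.2 (-3.56 ± 0.14). Tlr3 fell from 4716, 4443 and 4123 to 335, 282 and 239 (-3.89 ± 0.14), and Tlr4, the lipopolysaccharide receptor, from 336 to 23.2 (-3.19 ± 0.17). Tlr9, the receptor for unmethylated CpG DNA, moved against them, from 906, 834 and 846 to 2897, 2711 and 3559 (1.80 ± 0.11). Casp4, which encodes the cytosolic lipopolysaccharide sensor caspase-11, rose from 123, 159.8 and 115 to 2683, 2469.9 and 2615 (4.14 ± 0.16). Malt1, the protease of the CARD9 and BCL10 complex, rose from 467 to 3209.9 (2.74 ± 0.087), and Ly96, the MD-2 partner of TLR4, from 241 to 789.7 (1.64 ± 0.18). The largest adjusted p among these 8 genes was 1.37e-05.

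**Figure D4:**
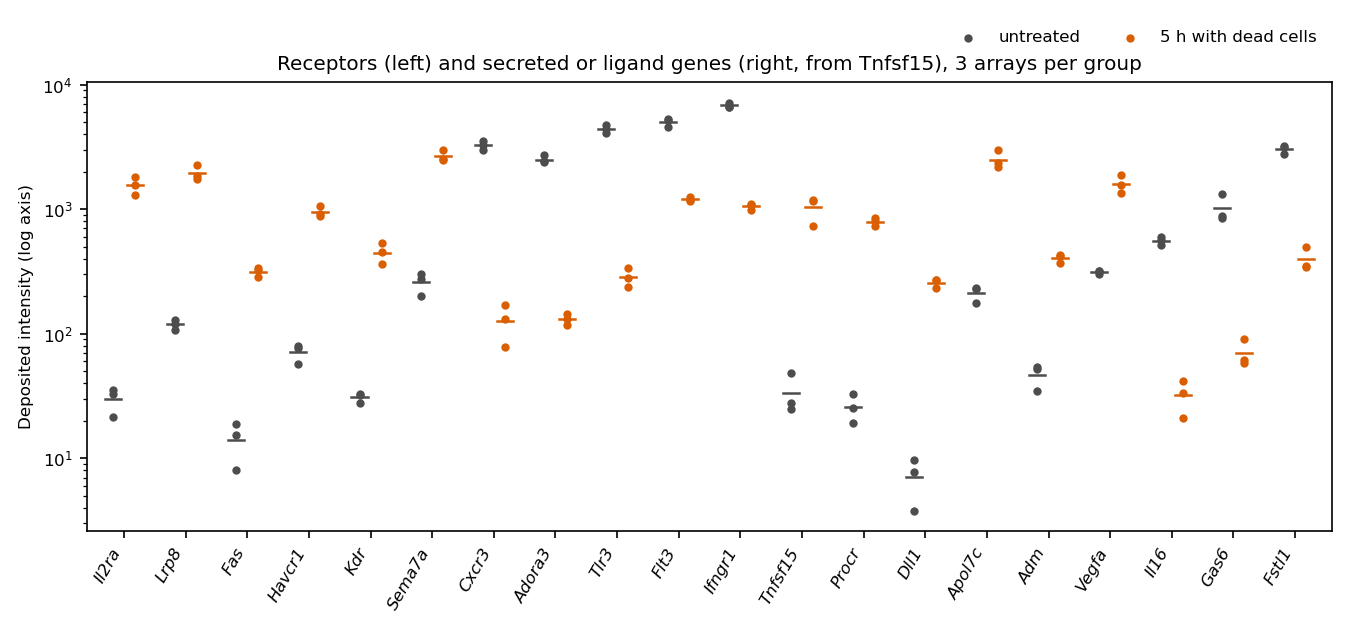
Intensity on a log axis of 11 receptor genes and 9 genes of ligands and secreted or carrier proteins, 1 point per array with 3 untreated and 3 treated WT arrays, and a bar at each mean. Il2ra went from a mean of 29.9 to 1565 and Fas from 14 to 316. The groups overlap in none of the 20 genes, as the rule that chose them required.

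Secreted factors also moved both ways, with calls of 66 higher and 84 lower on the deposited and 91 higher and 75 lower on the quantile scale. Of 247 measured genes in 6 lists, 44 were at least 2-fold higher (17.8%) and 56 lower (22.7%). List medians ran from -0.42 (complement, coagulation and carriers) to 0.60 (TNF ligands) on the deposited scale, and from -0.41 to 0.92 for the same lists on the quantile scale. TNF family ligands had the highest share of rises of any family list, 7 of 16 (43.8%), and 4 of these 7 belong to the maturation or interferon lists. Tnfsf15, which encodes TL1A, read 27.8, 25 and 48 untreated and 1172, 738 and 1195 with dead cells (4.40 ± 0.21). Cd70, the ligand of CD27 on T cells, went from 4.95, 1.69 and 5.83 to 164, 151 and 176 (3.16 ± 0.15). Its untreated values lie below the pseudocount, so this change is an understatement. Tnfsf9, the ligand of 4-1BB, rose from 607 to 4468 (2.88 ± 0.18), and Lta, lymphotoxin alpha, from 58.8 to 195 (1.54 ± 0.26). Both 4-1BB and its ligand were thus higher with dead cells.

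Chemokines and interleukins rose in larger shares than all genes. Of 31 chemokines, 9 were at least 2-fold higher (29%) and 7 at least 2-fold lower (22.6%), and 6 of the 9 rises are interferon or maturation genes. Of the falls Cxcl12 is on the stromal list and Pf4 on the mast and erythroid list. Ccl22, which draws cells bearing CCR4, rose from 294, 274 and 332 to 8196, 6501 and 7308 (4.54 ± 0.22). The neutrophil chemokine Cxcl2 fell from 1772 to 376 (-2.18 ± 0.13), and Cxcl12, the ligand of CXCR4, from 722 to 99.6 (-2.71 ± 0.33). The platelet and mast cell chemokine Pf4 fell from 865 to 70 (-3.34 ± 0.20), and Ccl12 from 163 to 18.5 (-2.34 ± 0.23). Cxcl9, Cxcl10 and Cxcl11, ligands of the receptor Cxcr3, had mean intensities with dead cells of 3184, 10197 and 1840.0, in the same arrays in which the receptor was low. Of 47 interleukins and colony stimulating factors, 9 were at least 2-fold higher (19.1%) and 2 at least 2-fold lower (4.26%), and 4 of the 9 rises are interferon or maturation genes. Il12b, the shared p40 chain of interleukins 12 and 23, rose from 719 to 12749.8 (4.13 ± 0.24), and Ebi3, a chain of interleukins 27 and 35, from 700.4 to 2270.1 (1.67 ± 0.14). Il15, whose receptor chain rose in the same arrays, went from 70.1, 108 and 112 to 1391, 1662 and 1482 (3.78 ± 0.16). Il16, a ligand of CD4, fell from 596, 566 and 516 to 41.7, 33.7 and 21.2 (-3.60 ± 0.14).

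Of 61 growth factors and morphogens, 13 were at least 2-fold lower (21.3%, against 16.5% of all genes) and 7 higher (11.5%, against 4.52%). The rises held factors that act on vessels and on Notch. Dll1, a Notch ligand, read 3.80, 9.75 and 7.73 untreated and 272, 233 and 268 with dead cells (3.57 ± 0.14). Adm, the vasodilator adrenomedullin, rose from 54.3, 51.6 and 34.4 to 367, 424 and 431 (2.77 ± 0.24). Vegfa, the vascular growth factor, went from 301, 319 and 316 to 1343, 1565 and 1892 (2.29 ± 0.13), and so ligand and receptor, Vegfa and Kdr, both rose. Nampt, a secreted enzyme that also makes the precursor of NAD, rose from 1010.0 ± 33.8 to 6456 ± 321 (SD, n = 3 each, 2.66 ± 0.12). The falls took Gas6, Fstl1, Igfbp4 and Ccn1, of which Fstl1 is a stromal marker. Fstl1 read 3161, 3228 and 2753 untreated and 340.4, 496 and 350.2 with dead cells (-2.91 ± 0.22). Igfbp4, a carrier of insulin-like growth factors, fell from 831 to 106 (-2.83 ± 0.24), and the matrix protein Ccn1 from 355 to 32.2 (-3.07 ± 0.33). The stromal list fell in the same arrays, as given above.

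Proteases, their inhibitors and carrier proteins followed. Of 48 proteases and inhibitors, 8 were at least 2-fold higher (16.7%) and 13 at least 2-fold lower (27.1%). Serpinb9, an inhibitor of granzyme B, rose from 874, 922 and 932 to 5974, 4367 and 4220.2 (2.38 ± 0.21), and its relative Serpinb9b from 38.6 to 298 (2.50 ± 0.20). Plaur, the urokinase receptor, rose from 71.9 to 443 (2.39 ± 0.24), and Lgmn, a lysosomal protease of antigen processing, from 3352 to 10923 (1.71 ± 0.12). Serpinb6a fell from 531 to 59.7 (-2.84 ± 0.17) and Timp2, a metalloprotease inhibitor, from 703 to 106 (-2.56 ± 0.19). Serpinf1 fell from 593 to 90.7 (-2.54 ± 0.19), and Prss34, a mast cell and basophil protease, from 298 to 28.9 (-2.80 ± 0.29). In the complement, coagulation and carrier list 19 of 44 were at least 2-fold lower (43.2%) and 4 higher (9.09%). Of the 19 falls 13 are on the marker lists of other cells, among them S100a8, C1qa from 2089.8 to 117 (-4.00 ± 0.23), C1qc from 2056 to 144 (-3.70 ± 0.19) and F13a1 from 964 to 33.8 (-4.28 ± 0.14). Apart from Procr the rises were led by Apol7c, an apolipoprotein L family member of dendritic cells. It read 177, 231 and 228 untreated and 2971, 2165 and 2343 with dead cells (3.46 ± 0.17). Hyal1, a hyaluronidase of lysosomes, rose from 46.4 to 201 (1.79 ± 0.14).

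Metabolic genes held shares of both rises and falls above those of all genes. Of 431 measured genes in 9 lists, 52 were at least 2-fold higher (12.1%, against 4.52%) and 134 lower (31.1%, against 16.5%), with a median of -0.69 on the deposited and -0.27 on the quantile scale. Glucose metabolism had the highest share of rises among these lists. Of 44 measured, 12 were at least 2-fold higher (27.3%) and 11 at least 2-fold lower (25%). Slc16a3, the lactate exporter MCT4, read 261, 197 and 174 untreated and 3212, 3156 and 3439.7 with dead cells (3.87 ± 0.14, adjusted p = 6.90e-09). Pfkfb3, the kinase that activates phosphofructokinase, rose from 1308, 1156 and 1052 to 8694, 8067 and 8103 (2.81 ± 0.11). Slc2a6, a hexose transporter, rose from 235 to 1877 (2.91 ± 0.13), and the enolase gene Eno2 from 11.6 to 293 (3.44 ± 0.22). Txnip, which restrains glucose uptake, fell from 3688, 3690.0 and 4340.4 to 1044, 866 and 916 (-2.03 ± 0.13). Slc16a7, the monocarboxylate transporter MCT2, fell from 133 to 5.83 (-2.78 ± 0.22), Rpia, of the pentose phosphate pathway, from 318 to 68.5 (-1.98 ± 0.11), and Pygb, a glycogen phosphorylase, from 972 to 255 (-1.87 ± 0.091). The transporters MCT4 and MCT2 thus moved in opposite directions. The median of the list was -0.0022 on the deposited and 0.37 on the quantile scale, with calls of 16 higher and 20 lower and 24 higher and 16 lower in the same order.

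Mitochondrial oxidation was lower across most of its genes. Of 51 measured, 2 were at least 2-fold higher (3.92%) and 18 at least 2-fold lower (35.3%), and the deposited scale called 42 lower and 3 higher, the quantile scale 33 and 7. Idh3a, a subunit of the NAD-linked isocitrate dehydrogenase, read 565, 597 and 551 untreated and 67.2, 56.5 and 53.1 with dead cells (-2.97 ± 0.093, adjusted p = 3.98e-09). Fh1, fumarate hydratase, fell from 1610.4, 1525 and 1588 to 258, 226 and 217 (-2.68 ± 0.090). Idh1, the cytosolic NADP-linked enzyme, fell from 342 to 48.7 (-2.48 ± 0.15), and Aco1, the cytosolic aconitase and iron sensor, from 950.4 to 188 (-2.25 ± 0.096). The rises were Bnip3, a trigger of mitophagy, from 165 to 1146 (2.69 ± 0.12), and Slc25a20, the carnitine carrier of the inner membrane, from 1077 to 2622 (1.27 ± 0.11). The median was -0.96 on the deposited and -0.49 on the quantile scale, lower than that of all genes on both.

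**Figure D5:**
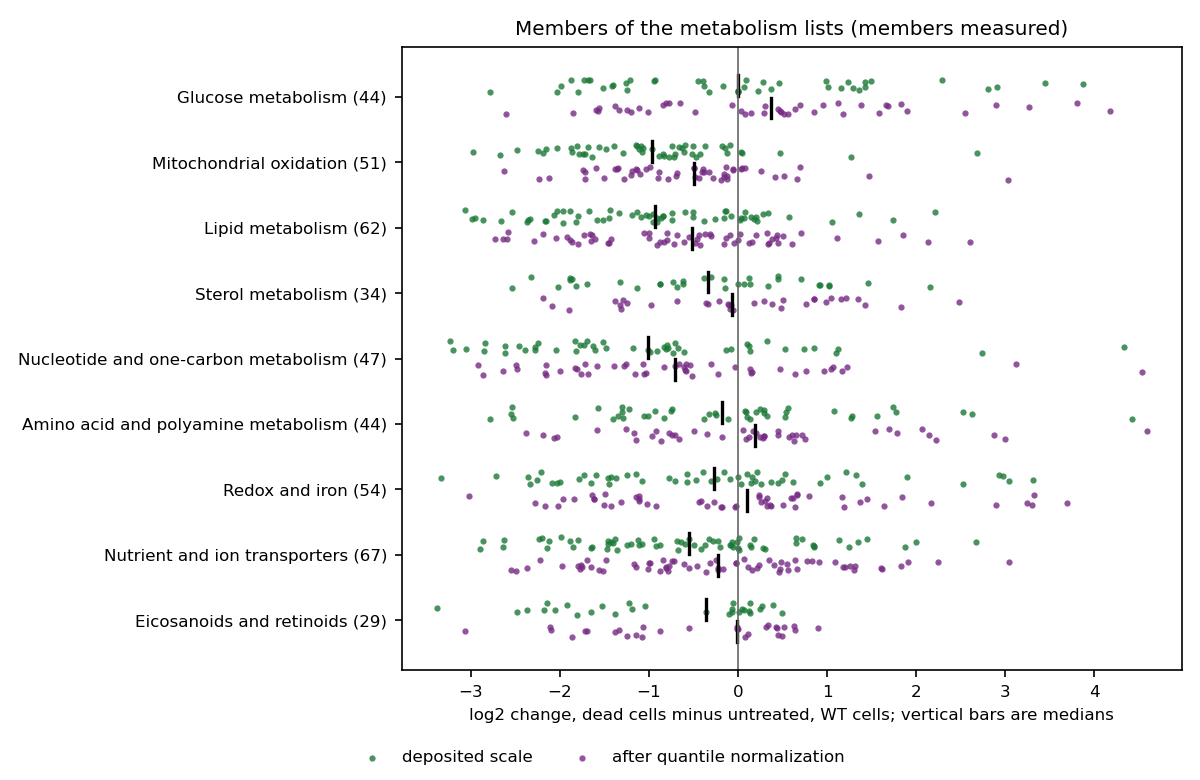
The log2 change of each measured member of 9 metabolic gene lists, dead cells minus untreated in WT cells, on the deposited scale (green) and after quantile normalization (purple), 3 arrays per group. Vertical bars mark medians, which lie at -1.01 and -0.70 for nucleotide and one-carbon metabolism and on both sides of 0 for amino acid and redox genes.

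Nucleotide and one-carbon metabolism had the lowest median of the metabolic lists, -1.01 on the deposited and -0.70 on the quantile scale. Of 47 measured, 4 were at least 2-fold higher (8.51%) and 22 at least 2-fold lower (46.8%). Umps, which makes uridine monophosphate in pyrimidine synthesis, read 817, 731 and 644 untreated and 48.6, 93.3 and 53.6 with dead cells (-3.23 ± 0.20). The purine synthesis enzymes Ppat and Atic fell from 579.5 to 66.8 (-2.85 ± 0.12) and from 1362 to 151 (-3.05 ± 0.13), and the folate enzyme Mthfd1 from 552, 559 and 490.1 to 52.8, 43.6 and 36.5 (-3.19 ± 0.14). The 4 rises were enzymes that break nucleosides and nucleotides down. Upp1, uridine phosphorylase, read 23.5, 24.8 and 48.4 untreated and 834, 936 and 1023 with dead cells (4.33 ± 0.18, adjusted p = 1.42e-08). Nt5c3, a pyrimidine nucleotidase, rose from 374 to 2587 (2.74 ± 0.12), Samhd1, which cleaves deoxynucleotides, from 3244 to 7081 (1.12 ± 0.084), and Pnp, purine nucleoside phosphorylase, from 1634 to 3513 (1.10 ± 0.11). Pnp has a close mouse paralogue, Pnp2, so its reading may hold both. Of 133 measured cell cycle genes, a separate list, 126 were lower in the same arrays, and their part in the falls of nucleotide genes was not tested.

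Lipid genes were lower more often than higher on both scales. Of 62 measured, 4 were at least 2-fold higher (6.45%) and 20 at least 2-fold lower (32.3%), with a median of -0.93 on the deposited and -0.51 on the quantile scale. Scd2, a fatty acid desaturase, fell from 1932, 2202 and 1912 to 228, 252 and 241 (-2.98 ± 0.14), and the elongase Elovl6 from 172 to 11.1 (-2.86 ± 0.29). Lpl, lipoprotein lipase, fell from 835 to 92.9 (-2.95 ± 0.18), and Pla2g15, a lysosomal phospholipase, from 341 to 26.6 (-3.06 ± 0.14). Rises were Cers6, a ceramide synthase, from 394, 429 and 383 to 1937, 1828 and 1974 (2.21 ± 0.089), and Sphk1, sphingosine kinase 1, from 56 to 226 (1.74 ± 0.14). Plaat3, a phospholipase, and Pcyt1a, of phosphatidylcholine synthesis, rose by 1.36 ± 0.18 and 1.06 ± 0.093. In sterol metabolism 4 of 34 were at least 2-fold higher and 8 lower. Ch25h, which makes 25-hydroxycholesterol, went from 31.2, 13.5 and 30.4 to 126, 163 and 207 (2.15 ± 0.24). Mylip, the ligase that degrades the LDL receptor, rose from 600.0 to 1699.8 (1.46 ± 0.17), Abcg1, a cholesterol exporter, from 1204 to 2472 (1.03 ± 0.13), and Hmgcs1, of the mevalonate pathway, from 777 to 1597 (1.02 ± 0.11). Abca1, the other main cholesterol exporter, fell from 279, 453 and 338 to 46.1, 39.3 and 56.8 (-2.54 ± 0.16), opposite to Abcg1. Dhcr7, a late enzyme of cholesterol synthesis, fell from 3591 to 706 (-2.33 ± 0.17), Ebp from 858 to 220.4 (-1.89 ± 0.089) and Scap, the sterol sensor that escorts SREBP, from 800.1 to 205 (-1.89 ± 0.11). Of 29 eicosanoid and retinoid genes none was at least 2-fold higher and 12 were lower (41.4%), while 9 were called higher on the quantile scale and 3 on the deposited scale. Hpgd, which inactivates prostaglandins, fell from 219, 522 and 309.7 to 21, 21.1 and 10.7 (-3.38 ± 0.27), Tbxas1, thromboxane synthase, from 2823 to 534 (-2.37 ± 0.093), Ptgr1 from 247 to 41.6 (-2.17 ± 0.15) and Ephx1, an epoxide hydrolase, from 385 to 56.1 (-2.47 ± 0.19).

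Of 44 measured genes of amino acid and polyamine metabolism, 9 were at least 2-fold higher (20.5%, against 4.52% of all genes). The 8 at least 2-fold lower (18.2%) were near the share of all genes, 16.5%. Il4i1, a secreted phenylalanine oxidase, read 87.7, 85.9 and 108 untreated and 3245, 1932 and 2031 with dead cells (4.43 ± 0.21). Ido1, which opens the tryptophan ring and heads the kynurenine pathway, rose from 54.7 to 403 (2.53 ± 0.27), while Kmo, a later enzyme of that pathway, fell from 2122, 2115 and 2065 to 358, 329 and 352 (-2.55 ± 0.096). Smox, spermine oxidase, rose from 184 to 1216 (2.63 ± 0.12), while Srm, spermidine synthase, fell from 761 to 121 (-2.53 ± 0.17). Nos2, the inducible nitric oxide synthase, rose from 40.1 to 177 (1.78 ± 0.15). Bckdha and Bckdk, a subunit and the kinase of the branched-chain ketoacid dehydrogenase, fell from 821 to 109 (-2.78 ± 0.17) and from 1049.7 to 169.5 (-2.52 ± 0.11). Of 54 redox and iron genes, 10 were at least 2-fold higher (18.5%) and 18 at least 2-fold lower (33.3%). Among the rises, Gclc, Srxn1 and Prdx1 are known targets of NRF2, whose gene Nfe2l2 rose as given above. Other members of the list fell, as given below, and Gstm1, with a mean of 154 in both groups, was not called (adjusted p = 0.992). Targets of NRF2 were not counted as a set, and a part of NRF2 in these changes was not tested. Gclc, the rate-limiting enzyme of glutathione synthesis, read 343, 363 and 314 untreated and 3955, 3107 and 3526 with dead cells (3.31 ± 0.14). Srxn1, sulfiredoxin, rose from 107 to 998 (3.04 ± 0.14), Prdx1, a peroxiredoxin, from 149.9 to 1239.5 (2.93 ± 0.13), and Mt2, a metallothionein, from 180.1 to 1544 (2.97 ± 0.35). Slc40a1, the iron exporter ferroportin, went from 545, 706 and 554 to 52.6, 30.9 and 54.9 (-3.33 ± 0.19), and Tfrc, the transferrin receptor, from 1199 to 224 (-2.34 ± 0.12). Blvra, biliverdin reductase, fell from 895 to 124 (-2.71 ± 0.12) and Mgst1 from 144 to 16 (-2.36 ± 0.23). Gpx4, which protects membranes from lipid peroxides, had means of 3228 and 3064 and was not called (adjusted p = 0.671).

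Of 67 nutrient and ion transporters, 7 were at least 2-fold higher (10.4%) and 18 at least 2-fold lower (26.9%). Slc7a11, the cystine importer that feeds glutathione synthesis, read 22.5, 35.9 and 27.6 untreated and 293, 228 and 285 with dead cells (2.68 ± 0.14). Clic4, a chloride channel protein, rose from 2542 to 9339.9 (1.87 ± 0.078), Slc15a3, a lysosomal peptide and histidine transporter, from 466 to 1331 (1.45 ± 0.17), and Slc7a2, an arginine importer, from 38.5 to 124 (1.35 ± 0.21). P2rx7, the ATP-gated channel, fell from 404, 419.8 and 343 to 48.9, 40.3 and 27.9 (-2.89 ± 0.16). Slc43a2, a transporter of large neutral amino acids, fell from 693 to 81.9 (-2.86 ± 0.12), Slc29a1, a nucleoside transporter, from 616 to 86.1 (-2.64 ± 0.13), and Slc46a3, a lysosomal transporter, from 3538 to 558 (-2.63 ± 0.099).

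The share of signalling genes that rose was above the background. Of 284 measured genes in 5 lists, 62 were at least 2-fold higher (21.8%) and 51 lower (18%). The calls at any size were 107 higher and 111 lower on the deposited and 141 higher and 97 lower on the quantile scale. List medians ran from -0.44 (kinase feedback) to 0.51 (ubiquitin and NF-kB regulators) on the deposited scale, and from -0.26 to 0.81 for the same lists on the quantile scale. Feedback inhibitors of kinases changed in both directions. Of 52 measured, 11 were at least 2-fold higher (21.2%) and 17 at least 2-fold lower (32.7%). Cish, an inhibitor of cytokine receptors that STAT5 induces, read 30.5, 52.9 and 31.5 untreated and 919.6, 828 and 877 with dead cells (4.06 ± 0.23), and Stat5a rose from 626, 579 and 567 to 7098, 5993 and 6533 (3.43 ± 0.10). Socs2, of the same family as Cish, rose from 165 to 1423 (3.04 ± 0.27). Dusp4, a nuclear phosphatase of MAP kinases, rose from 120.2, 132 and 99.1 to 1479, 1695 and 1650.0 (3.61 ± 0.27), while the cytoplasmic ERK phosphatases Dusp6 and Dusp7 changed by -3.98 ± 0.14 and -3.21 ± 0.30. Dusp1, another MAP kinase phosphatase, had means of 8106 and 8204 and was not called (adjusted p = 0.889). Dusp4 and Dusp6 thus moved in opposite directions. Dok1, an adaptor that opposes RAS, rose from 565 to 2379 (2.04 ± 0.091). Rgs18, which shortens G protein signals, fell from 1419 to 129 (-3.30 ± 0.16), and the tyrosine phosphatase Ptpre from 951 to 114 (-2.91 ± 0.16). Of 69 kinases and scaffolds, 15 were at least 2-fold higher (21.7%) and 11 at least 2-fold lower (15.9%). Map3k14, the NF-kB inducing kinase of the alternative pathway, rose from 366, 318 and 267 to 4075, 4152 and 4391 (3.67 ± 0.11), Map3k8, the TPL2 kinase, from 371 to 2125 (2.47 ± 0.095), and Pim2, a survival kinase, from 109.7 to 658 (2.44 ± 0.14). Mapk14, the p38 alpha kinase, fell from 3042, 2921 and 2786 to 309.6, 289 and 299.8 (-3.22 ± 0.13), and its activator Map2k6 from 446 to 28.6 (-3.39 ± 0.16). Pik3cg, the G protein-coupled phosphoinositide kinase, fell from 1951 to 249.9 (-2.89 ± 0.12), and Dapk2 from 984 to 100.1 (-3.11 ± 0.086).

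Regulators of ubiquitin and NF-kB had 13 of 38 members at least 2-fold higher (34.2%) and 4 lower (10.5%), with a median of 0.51 on the deposited and 0.81 on the quantile scale. Tnip3, a partner of the deubiquitinase A20 that restrains NF-kB, read 246, 263 and 229 untreated and 8617, 7570.4 and 7277 with dead cells, and Tnip1, its relative, rose from 165 to 969 (2.44 ± 0.11). Traf1, an adaptor of TNF receptors, rose from 332 to 5361 (3.95 ± 0.10), and Birc3, the ubiquitin ligase cIAP2, from 684 to 3943 (2.50 ± 0.096). Marchf1, the ligase that removes MHC class II and CD86 from the surface, fell from 1708, 1556 and 1413 to 207, 209.7 and 222 (-2.78 ± 0.11). Zfp36l2, which destabilises mRNA, fell from 3348 to 678 (-2.28 ± 0.13), Tnfaip8l2 from 1443 to 367 (-1.93 ± 0.12) and Tifa from 1835 to 541 (-1.73 ± 0.11). Genes of survival and death moved on both sides. Of 55 measured, 14 were at least 2-fold higher (25.5%) and 8 at least 2-fold lower (14.5%, below the 16.5% of all genes). Bcl2l11, the death-promoting protein BIM, read 369, 396 and 349 untreated and 4751, 4279 and 4864 with dead cells (3.58 ± 0.12). Cflar, the inhibitor c-FLIP of caspase-8, went from 264, 249 and 208 to 2643, 2407 and 2676 (3.34 ± 0.19), in the same arrays in which Fas rose. Gadd45b, a stress-induced survival gene, rose from 703 to 9889.8 (3.79 ± 0.12). Casp6 fell from 1859, 1729 and 1846 to 146, 171 and 111 (-3.54 ± 0.16), Casp2 from 1551 to 173 (-3.05 ± 0.092) and Bid, which links caspase-8 to mitochondria, from 709 to 139 (-2.23 ± 0.13). Sesn1, a stress target of p53, fell from 275 to 31.3 (-2.62 ± 0.16).

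Genes of the cytoskeleton and of migration were close to the background on the side of falls. Of 70 measured, 9 were at least 2-fold higher (12.9%) and 11 at least 2-fold lower (15.7%). The rises held small GTPases and their activators. Rnd1 went from 40.2, 38 and 42.2 to 302, 329 and 286 (2.52 ± 0.096), Rhof rose from 119.7 to 950.2 (2.84 ± 0.16) and the exchange factor Arhgef3 from 146 to 768 (2.28 ± 0.15). Myo1g, a myosin of haematopoietic cells, rose from 2003 ± 76.3 to 8115 ± 366 (SD, n = 3 each, 2.01 ± 0.078). Was, which drives actin branching in blood cells, fell from 1081, 1049 and 992 to 168, 150.2 and 138 (-2.66 ± 0.091). The exchange factors Arhgef6 and Rasgrp3 fell from 1825 to 359.6 (-2.30 ± 0.12) and from 1142 to 245 (-2.15 ± 0.13), and the actin bundler Pls3 from 197 to 26.5 (-2.35 ± 0.17).

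The rises and falls chosen by the rule were called on both scales by construction. Their log2 changes after quantile normalization lay above those on the deposited scale in 284 of 290 genes, by a median of 0.33 and at most 0.59. Rises were thus mostly larger and falls smaller, for example Mxd1 at 4.94, Fzd7 at 1.56, Mycl at -2.14 and Egr2 at -1.24 on the quantile scale. In Clec9a gfp/gfp cells the 133 rises and the 157 falls so chosen were called in the same direction. At least 2-fold there were 127 of the rises and 156 of the falls. This is not an independent check, since the Clec9a gfp/gfp arrays helped set the spread and the quantile scale that chose the genes.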

How the data were processed

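RNA of sorted dendritic cells was reduced in ribosomal RNA, labelled with biotin for whole transcripts and hybridised to 12 Affymetrix arrays, per the labels' protocols. Each row has a deposited intensity per array, which the values show to be linear. The submitters' processing notes name the build mm8. How the authors corrected, summarised and normalized each intensity, and with what software, is not given in the sources used here. Between 11.5% and 14.4% of the rows of a WT array lay below 16, and the number of arrays limits the precision. Scan dates were not used here, so no batch was tested.

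Groups came from the labels, 3 arrays in each of 4. Intensities were converted to log2(value + 16), and limma 3.58.1 under R 4.3.3 fitted 1 mean for each group to the 12 arrays, with two-sided moderated tests. The contrast was WT with dead cells minus WT untreated, adjusted by Benjamini-Hochberg over 23238 rows and called under 0.05. Of the rows 14939 had 1 gene symbol, 989 several, and 7310 none. Names were updated through gene IDs to RefSeq (14884 matched), and 131 genes with several rows were read at the brightest row. The members and gene lists were chosen with earlier results of these data known. The lists were families of transcription factors, receptors, secreted factors, metabolism and signalling, and markers of cDC1, macrophages, neutrophils, pDC, cDC2, lymphocytes, mast and erythroid cells, stroma, and epithelium with melanocytes. No list was tested, and counts and medians are given beside those of all genes.

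Genes were chosen by rule, and not all of them are named in the text. From each family up to 4 rises and 4 falls with the largest log2 change were taken among members at least 2-fold changed on both scales, with groups that did not overlap and a mean of at least 100 in the higher group. The 15 largest rises and falls over all genes outside the interferon, maturation and cell cycle lists were added, with genes off in one group and on in the other. From marker lists up to 4 members were taken, and up to 3 members of a list without a call. Same-numbered WT arrays did not deviate together, with r of -0.018, 0.0040 and 0.044, against -0.049 to 0.051 for differently numbered ones. The labels do not say whether the numbers pair samples. A lack of shared deviation cannot exclude a pairing, so the main fit used none. Alternatives were quantile normalization, a shift to one median, other pseudocounts, removal of the dimmest 25% of rows, a fit on WT arrays alone, a replicate block, array weights, trended and robust eBayes, other fold thresholds and leaving out each array. Promoter windows came from RefSeq for GRCm38.p6, which is not the build of the arrays, and were joined by gene symbol.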

Additional observations from a re-analysis of the deposited data

Results flagged for a closer look

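The response of Clec7a, which encodes the beta-glucan receptor dectin-1, differed between the genotypes by -2.09 ± 0.21 (SE) on the log2 scale, Clec9a gfp/gfp minus WT (limma, adjusted p = 0.0219 for the difference itself). In WT cells its intensity was 266, 311 and 327 untreated and 525, 449 and 463 with dead cells, a log2 change of 0.64 ± 0.15 (adjusted p = 0.00358). In Clec9a gfp/gfp cells the mean went from 3020.3 ± 613 (SD, n = 3) to 1083 ± 32.3 (SD, n = 3). Gzma, a granzyme gene on the lymphocyte list, had log2 changes of opposite sign in the 2 genotypes, 0.43 ± 0.13 in WT cells (adjusted p = 0.0218) and -0.098 ± 0.13 in Clec9a gfp/gfp cells, where it was not called (adjusted p = 0.584). The difference of -0.53 on the log2 scale was not called either (adjusted p = 0.999). It was dim, with means of 15.2 untreated and 26.3 with dead cells in WT, and of 23 and 20.5 in Clec9a gfp/gfp cells.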

How the results depend on the processing

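The number of rows higher depended on the scale. It was 3368 as reported, 6277 after quantile normalization and 6969 after shifting all arrays to a common median, while the number lower was 7213, 5635 and 6264. Pseudocounts of 1 and 64 or none, removal of the dimmest 25% of rows, a fit on WT arrays alone, array weights and trended or robust eBayes gave 3139 to 3565 higher and 7050 to 7331 lower. Leaving out each array in turn gave 2734 to 3360 higher and 6719 to 7132 lower. With the replicate number as a replicate block the counts were 3163 and 7119. The 2-fold count on both scales, 921 higher and 2941 lower, became 1802 and 4481 at 1.5-fold and 288 and 661 at 4-fold. It was 698 and 2102 with a pseudocount of 64, 919 and 2916 on WT arrays alone, and 888 to 997 and 2896 to 3035 when each array was left out. Of 309 genes chosen by the rule or used as markers none reversed under the alternatives run. Between 303 and 309 kept their side of the threshold, with 305 of 305 still tested after removal of the dimmest rows. Clec9a, near the floor in the Clec9a gfp/gfp arrays that share the estimate of the spread, lost its call with a pseudocount of 1 or none. Array signals below about 16 carry no order, so changes of genes with a mean under 16 in one group, such as Cd70, Dll1, Eno2 or Fas, are sized mainly by the pseudocount.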
